A study of Mus musculus with 4 samples.

Results

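The genes described here are those of glycolysis and of the response to low oxygen, in cells, mainly T cells, taken from mouse colon tumours. They were taken by name from a written list of 34 genes. Of these, 33 were found among the 13518 genes of the deposited table: 20 of 20 glycolytic genes and 13 of 14 hypoxia genes. Adm is not analysed here. The glycolytic genes are sugar and lactate transporters (Slc2a1, Slc2a3, Slc16a3), enzymes in pathway order (Hk1, Hk2, Gpi1, Pfkp, Pfkl, Pfkm, Aldoa, Tpi1, Gapdh, Pgk1, Pgam1, Eno1, Eno3, Pkm, Ldha) and enzymes that set the level of a phosphofructokinase activator (Pfkfb3, Pfkfb4). The hypoxia genes are the oxygen-regulated transcription factor subunit Hif1a, the prolyl hydroxylases that mark it for destruction (Egln1, Egln3), and genes known as its targets (Pdk1, Bnip3, Bnip3l, Ndrg1, P4ha1, Higd1a, Ddit4, Vegfa, Kdm3a, Ak4).

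The tumours came from MC38, a colon carcinoma line of the mouse, implanted orthotopically into C57BL/6 animals. Mice received anti-PD-1 antibody (3 times a week, 5 doses), ATT-I (atractylenolide I, a plant sesquiterpene lactone, 50 mg/kg daily), both agents (the combination), or vehicle. The sample entry of the vehicle arm gives no treatment, while the treatment protocol gives vehicle, the name used here. Each arm is 1 droplet single-cell library from 5 pooled tumours, harvested 2 weeks after treatment began, and holds 12562 anti-PD-1, 297 ATT-I, 199 combination and 155 vehicle cells. With 1 library an arm no difference between arms has a replicate check, treatment and library cannot be told apart, and the intervals below are exact 95% intervals that cover counting error only.

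Glycolysis splits glucose into pyruvate in the cytosol, and lactate dehydrogenase and the lactate exporter Slc16a3 (MCT4) dispose of the product when mitochondria do not take it up. T cells raise glucose uptake and glycolytic flux when they are activated and divide. When oxygen is scarce, HIF-1α escapes hydroxylation by Egln1 and Egln3 and, with ARNT, binds hypoxia response elements, whose core is most often ACGTG. Many glycolytic genes are direct HIF-1 targets, so the lists overlap in regulation although not in membership.

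Promoter windows from RefSeq (build GRCm38.p6, 250 bases before the start of transcription to 50 after it) were found for 30 of the 33 genes. The core ACGTG, searched on both strands (its reverse complement is CACGT), was present in at least 1 window of 12 of 19 glycolytic genes (63.2%) and 9 of 11 hypoxia genes (81.8%), against 29.2% of 10107 genes of the table with a window. Genes with more windows have more chances to match. Among genes with a single window the shares were 6 of 12 (50%) and 7 of 7 (100%), against 26.0% of the table's genes. The windows of Bnip3 and Slc16a3, whose levels were highest in Foxp3-gated cells among the 3 lineage gates of every library, and of Eno3, which set CD8-gated cells apart from CD4-gated cells, are printed to show the core beside the values. Capitals mark ACGTG or its reverse complement. In Bnip3 both strands match at 1 palindromic place, in Slc16a3 there are 2 separate matches, and in Eno3 the letters do not occur in the window.
Bnip3 (chr7:138909457-138909756, minus strand): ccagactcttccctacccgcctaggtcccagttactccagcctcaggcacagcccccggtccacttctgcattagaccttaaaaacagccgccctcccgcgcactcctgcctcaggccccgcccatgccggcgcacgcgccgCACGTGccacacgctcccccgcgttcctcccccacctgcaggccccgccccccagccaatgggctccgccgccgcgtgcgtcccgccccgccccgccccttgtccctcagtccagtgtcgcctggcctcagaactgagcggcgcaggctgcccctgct
Slc16a3 (chr11:120948817-120949116, plus strand): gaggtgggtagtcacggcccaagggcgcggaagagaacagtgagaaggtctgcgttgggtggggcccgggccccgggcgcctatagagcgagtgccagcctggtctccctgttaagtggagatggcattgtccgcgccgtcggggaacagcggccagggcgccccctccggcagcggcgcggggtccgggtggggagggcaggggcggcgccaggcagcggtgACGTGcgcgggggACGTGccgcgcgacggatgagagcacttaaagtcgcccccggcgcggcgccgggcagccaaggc
Eno3 (chr11:70656926-70657225, plus strand): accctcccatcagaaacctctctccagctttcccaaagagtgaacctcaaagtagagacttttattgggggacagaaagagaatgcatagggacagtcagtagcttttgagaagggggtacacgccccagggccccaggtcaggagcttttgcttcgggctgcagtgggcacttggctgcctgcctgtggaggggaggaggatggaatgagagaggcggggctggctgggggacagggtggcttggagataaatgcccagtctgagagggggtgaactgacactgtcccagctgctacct
A match of letters is not a binding site, and no binding was measured.

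Levels are summed UMIs (unique transcript tags) per 10000 UMIs of the cells in question, recovered from the deposited values. The libraries held 108628721 UMIs for anti-PD-1, 2878355 for ATT-I, 5232593 for the combination and 3099824 for vehicle, and their median cells held 7148, 6828, 23927 and 16129 UMIs in that order. Of the cell barcodes, 1 occurred in 2 libraries. The label gives tumour as the tissue, but summed T cell markers (5 of 5 in the table) stood at 26.3 to 51.7 UMIs per 10000 and tumour epithelial markers (6 of 7 in the table) at 0.0669 to 1.53, so the values are mainly those of T cells. Cells with no Cd3 UMI numbered 9 in anti-PD-1, 2 in ATT-I, 0 in the combination and 10 in vehicle. NK cells were not set apart. Haemoglobin UMIs were present in 297 of 297 ATT-I cells, at 53.8 per 10000 against 0.0268 to 0.738 in the other libraries. Summed cycling markers were 8.81 in anti-PD-1, 9.44 in ATT-I, 28.0 in the combination and 25.3 in vehicle. The part of haemoglobin RNA, depth and cycling in the differences between arms was not tested.

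Cells were gated on single genes. CD8-gated cells have more Cd8a and Cd8b1 than Cd4 UMIs and no Foxp3 UMI, CD4 conventional-gated cells the reverse with no Foxp3 UMI, and Foxp3-gated cells at least 1 Foxp3 UMI and no excess of Cd8. Foxp3 is the factor that defines regulatory T cells, and Ikzf2 (Helios), which the gate did not use, stood at 10.6 UMIs per 10000 in Foxp3-gated cells of anti-PD-1, 2.73 in CD4 conventional-gated and 2.44 in CD8-gated cells. CD8-gated cells numbered 8838 in anti-PD-1, 118 in ATT-I, 120 in the combination and 51 in vehicle. CD4 conventional-gated cells numbered 947, 90, 39 and 55, and Foxp3-gated cells 869, 27, 29 and 23, in the same order. Cells in none of these gates made up 15.2%, 20.9%, 5.53% and 16.8% of the libraries in that order, and they count in the values over all cells. Ratios between groups are log2 ratios relative to the median gene of the comparison. A gene entered a comparison if 10% or more of the cells on one side had a UMI, and "higher" or "lower" by the fold rule means at least 1.5-fold (0.58 on the log2 scale). A scarce gene can thus enter only through the side where it is high or the cells are deeper.

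Summed over the list, glycolytic UMIs made up a similar part of all 4 libraries, and hypoxia gene UMIs likewise. Glycolytic genes summed to 75.7 UMIs per 10000 in anti-PD-1, 69.2 in ATT-I, 70.5 in the combination and 68.2 in vehicle. Hypoxia genes summed to 8.90, 8.06, 10.0 and 9.76. Within a library the spread between gates was wider than this: in anti-PD-1 the glycolytic sum was 102 in Foxp3-gated cells, 86.2 in CD4 conventional-gated cells and 72.2 in CD8-gated cells, and the hypoxia sum 16.4, 13.3 and 7.40. The Foxp3-gated cells had the highest glycolytic sum in every library, at 93.9 in ATT-I, 98.6 in the combination and 93.3 in vehicle. Gapdh alone gave 23.7 of the 75.7 UMIs in anti-PD-1, so the sums follow the most abundant members, and the results below are given gene by gene.

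**Figure D1:**
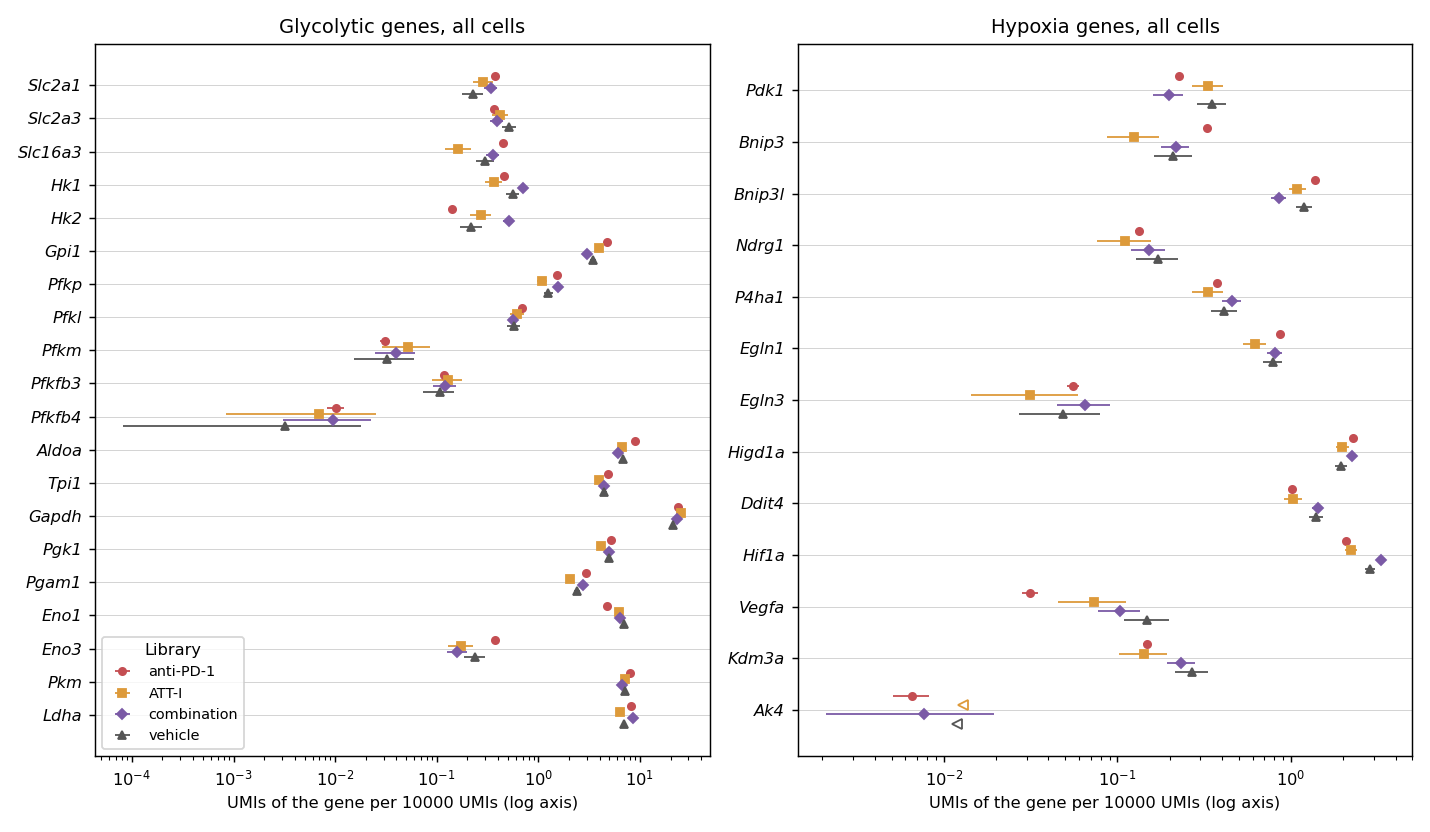
Level of each measured gene over all cells of the 4 libraries, in UMIs per 10000 UMIs on a log axis, with exact 95% counting intervals; open triangles are upper limits where a library held 0 UMIs. Most genes differ little between libraries compared with the range between genes, while Hk2 is highest in the combination and Eno3, Slc16a3 and Bnip3 are highest in anti-PD-1. The levels are not adjusted for the share of each lineage gate in a library.

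Among the transporters, the glucose importer Slc2a1 (GLUT1) stood at 0.373 UMIs per 10000 in anti-PD-1, 0.288 in ATT-I, 0.342 in the combination and 0.226 in vehicle. Slc2a3 (GLUT3), the high-affinity importer, had the opposite order at its ends, with 0.369, 0.420, 0.388 and 0.516. The lactate exporter Slc16a3 stood at 0.450 in anti-PD-1, 0.163 in ATT-I, 0.355 in the combination and 0.300 in vehicle. Over all cells Slc16a3 was thus lowest in ATT-I, with an interval of 0.120 to 0.217 that lies below the other 3, and highest in anti-PD-1, with 0.437 to 0.463. By the levels given below, ATT-I was not below vehicle in CD8-gated cells, while in Foxp3-gated and CD4 conventional-gated cells it was. The ratio of ATT-I to vehicle over all cells also changed sign in a setting described below.

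Hexokinases trap glucose by phosphorylation. Hk2, the inducible hexokinase (chr6:82725025-82774454, GRCm38.p6), stood at 0.140 UMIs per 10000 in anti-PD-1 (0.133 to 0.147), 0.271 in ATT-I (0.214 to 0.338), 0.512 in the combination (0.453 to 0.577) and 0.219 in vehicle (0.170 to 0.278). The combination stands above the other 3 libraries and anti-PD-1 below them, while ATT-I and vehicle overlap. Hk1, the constitutive form, stood at 0.464, 0.365, 0.709 and 0.561 in the same order of libraries.

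The enzymes of the middle and lower pathway had no common order of libraries. Gapdh, which makes the first NADH of the pathway, stood at 23.7 UMIs per 10000 in anti-PD-1, 25.3 in ATT-I, 22.9 in the combination and 21.1 in vehicle. Ldha, which turns pyruvate to lactate, stood at 8.13, 6.31, 8.54 and 7.04. Eno1, the common enolase, was lowest in anti-PD-1, with 4.78, 6.19, 6.37 and 6.90. Eno3, the enolase known from muscle, was instead highest there over all cells, with 0.372 in anti-PD-1, 0.174 in ATT-I, 0.159 in the combination and 0.239 in vehicle. Within CD8-gated cells its level, given below, was not higher in anti-PD-1 than in vehicle, while in Foxp3-gated and CD4 conventional-gated cells it was. CD8-gated cells made up 70.4% of anti-PD-1 and 32.9% of vehicle cells, and the part of this mix was not tested. Gapdh, Aldoa, Pgk1, Pgam1, Ldha and Bnip3l have numbered pseudogenes in the annotation, and how reads shared with these were counted is not given in the sources used here, so their absolute levels are uncertain. Pfkm had 335 UMIs in anti-PD-1, 15 in ATT-I, 21 in the combination and 10 in vehicle, and Pfkfb4 had 110, 2, 5 and 1, too few to rank the libraries.

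Of the hypoxia genes, Hif1a itself stood at 2.06 UMIs per 10000 in anti-PD-1, 2.21 in ATT-I, 3.29 in the combination and 2.84 in vehicle. Bnip3, a mitochondrial receptor for mitophagy, stood at 0.328 in anti-PD-1, 0.125 in ATT-I, 0.216 in the combination and 0.210 in vehicle. Over all cells anti-PD-1 was thus highest for Bnip3 and lowest for Hif1a, but its Hif1a interval (2.04 to 2.09) overlaps that of ATT-I (2.04 to 2.39). CD8-gated cells, which held least Hif1a, made up 70.4% of anti-PD-1, 39.7% of ATT-I, 60.3% of the combination and 32.9% of vehicle. In each lineage gate, by the levels given below, ATT-I was lowest for Hif1a and anti-PD-1 highest for Bnip3. The part of this mix in the order over all cells was not tested. Vegfa, the secreted angiogenic factor, had its lowest level in anti-PD-1, with 0.0313, 0.0730, 0.103 and 0.148. The vehicle value came from 46 UMIs in 6.45% of 155 cells. Of its CD8-gated cells, those with a Tcf7 UMI held 0 of these and those without held 7. Pdk1, which keeps pyruvate out of mitochondria, stood at 0.226, 0.334, 0.197 and 0.348, lower in both antibody-treated libraries. The other hypoxia genes ranged from 0.0313 to 2.29 UMIs per 10000, and the adenylate kinase Ak4 had 71 UMIs in anti-PD-1, 0 in ATT-I, 4 in the combination and 0 in vehicle.

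The first comparison asks how CD8-gated cells differ from CD4 conventional-gated cells of the same library. In anti-PD-1 the glycolytic median was -0.26 and the hypoxia median -0.32 on the log2 scale, and the genes that stood out were Eno3, higher in CD8-gated cells, and Hif1a, Hk2, Ndrg1 and Ddit4, lower in them. By the fold rule 1 of 17 glycolytic genes was higher and 1 lower, and 0 of 10 hypoxia genes higher and 3 lower, where 5.52% of 6571 genes were higher and 7.84% lower. With no UMI of the other coreceptor allowed in either gate, the glycolytic median was -0.15.

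Eno3 (chr11:70653125-70662513) stood at 0.430 UMIs per 10000 in CD8-gated cells of anti-PD-1, against 0.0964 in CD4 conventional-gated cells, a log2 ratio of 2.22 (1.86 to 2.60). In ATT-I it was 0.287 against 0.0410 from 3 UMIs, a ratio of 2.90 (1.24 to 5.23). In vehicle it was 0.480 against 0.0500 from 3 UMIs, a ratio of 3.35 (1.73 to 5.66). In the combination 73 UMIs in CD8-gated cells (0.199) stood against 0 UMIs, which is at least 2.13 on the log2 scale when set against a floor of 3 UMIs over the gate. Eno3 was thus higher in CD8-gated than in CD4 conventional-gated cells of all 4 libraries. In each it entered through the CD8 side alone, so its count as a higher gene is not separate from the entry rule. Foxp3-gated cells had levels between those of these gates, at 0.228 in anti-PD-1, 0.0725 in ATT-I, 0.135 in the combination and 0.0740 in vehicle. In ATT-I and vehicle both Foxp3-gated and CD4 conventional-gated cells held a few Eno3 UMIs, too few to order them. Eno1 had log2 ratios between CD8-gated and CD4 conventional-gated cells of -0.17 in anti-PD-1, 0.19 in ATT-I, 0.23 in the combination and 0.32 in vehicle, all under the fold.

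Hif1a (chr12:73901324-73947554) had the opposite pattern. It stood at 1.35 UMIs per 10000 in CD8-gated and 4.93 in CD4 conventional-gated cells of anti-PD-1, a log2 ratio of -1.81 (-1.87 to -1.76). The pairs were 1.28 against 3.82 in ATT-I (-1.49), 2.31 against 7.16 in the combination (-1.54), and 1.79 against 4.87 in vehicle (-1.36). Foxp3-gated cells held 5.23, 3.59, 5.01 and 4.98 in anti-PD-1, ATT-I, the combination and vehicle. By the fold rule 1 of 18 glycolytic genes was higher and 2 lower in ATT-I, where 15.2% of genes were higher and 14.5% lower, 1 of 19 higher and 3 lower in the combination (19.5% and 22.0%), and 2 of 18 higher and 1 lower in vehicle (22.3% and 20.6%). Hypoxia genes higher and lower numbered 0 and 1 of 8 in ATT-I, 3 and 4 of 12 in the combination, and 2 and 1 of 10 in vehicle. In each library, Hif1a was therefore lower in CD8-gated cells than in both other gates, while Foxp3-gated and CD4 conventional-gated cells overlapped in their intervals in anti-PD-1, ATT-I and vehicle and the CD4 cells stood higher in the combination.

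Hk2 stood at 0.109 UMIs per 10000 in CD8-gated against 0.291 in CD4 conventional-gated cells of anti-PD-1, a log2 ratio of -1.36 (-1.58 to -1.12). The ratio was -1.20 in ATT-I and -1.18 in the combination but 0.72 in vehicle, where CD4 conventional-gated cells held 7 Hk2 UMIs and the interval ran from -0.55 to 2.18. Ndrg1, a stress-induced gene, was lower in CD8-gated cells of anti-PD-1 (-1.14) and the combination (-1.09), and its intervals reached 0 in ATT-I and vehicle.

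**Figure D2:**
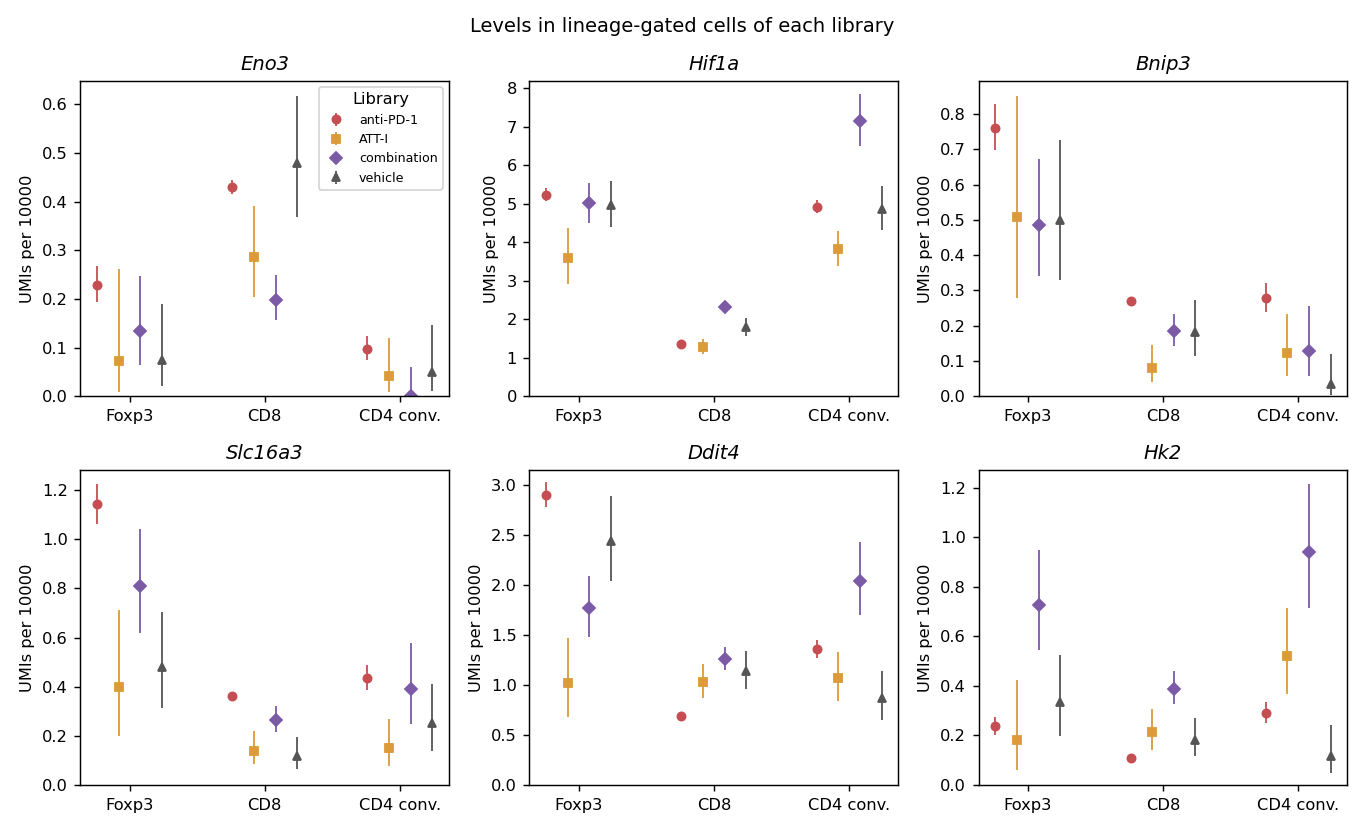
Levels of 6 genes in Foxp3-gated, CD8-gated and CD4 conventional-gated cells of each library, in UMIs per 10000 UMIs, with exact 95% counting intervals. Eno3 is highest in CD8-gated cells, Hif1a is lowest in them, and Bnip3 and Slc16a3 are highest in Foxp3-gated cells in all 4 libraries; Hk2 is highest in the combination in each gate.

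Foxp3-gated cells of anti-PD-1 were above CD4 conventional-gated cells by a small amount in most glycolytic genes and by more than the fold in a few members of both lists. The glycolytic median was 0.19, with 15 of 16 genes above 0, 1 higher by the fold rule and 0 lower, and the hypoxia median 0.19, with 3 of 10 higher and 0 lower, where 5.69% of 6366 genes were higher and 5.77% lower. The genes past the fold were Slc16a3, Bnip3, Ddit4 and Ndrg1. Ddit4 (REDD1) is an inhibitor of mTORC1 signalling that low oxygen and other stresses induce.

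Bnip3 (chr7:138890836-138909506) stood at 0.761 UMIs per 10000 in Foxp3-gated cells of anti-PD-1, against 0.277 in CD4 conventional-gated cells (log2 ratio 1.42, 1.18 to 1.67). In ATT-I the values were 0.508 and 0.123 (1.96, 0.65 to 3.35), and in the combination 0.485 and 0.130 (2.02, 0.89 to 3.34). In vehicle they were 0.499 and 0.0334, the second from 2 UMIs (4.01, 2.02 to 7.13), so Bnip3 entered there through the Foxp3 side alone. Foxp3-gated cells were higher in all 4 libraries, and they also lay above CD8-gated cells, which held 0.271, 0.0808, 0.185 and 0.181.

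Slc16a3 (chr11:120948484-120959000) stood at 1.14 UMIs per 10000 in Foxp3-gated and 0.437 in CD4 conventional-gated cells of anti-PD-1 (log2 ratio 1.35, 1.16 to 1.55). The pairs were 0.399 and 0.150 in ATT-I (1.32, -0.02 to 2.67), 0.808 and 0.389 in the combination (1.17, 0.47 to 1.92), and 0.481 and 0.250 in vehicle (1.05, 0.08 to 2.07). The direction was the same in 4 of 4 libraries, and only in ATT-I, with 11 UMIs on each side, did the interval reach 0.

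Ddit4 (chr10:59949675-59951770) was less uniform. It stood at 2.90 UMIs per 10000 in Foxp3-gated and 1.36 in CD4 conventional-gated cells of anti-PD-1 (1.06) and at 2.44 and 0.867 in vehicle (1.60). In ATT-I the levels were 1.02 and 1.06 (-0.16), and in the combination 1.76 and 2.04 (-0.09). So Ddit4 was higher in Foxp3-gated cells of the anti-PD-1 and vehicle libraries and did not differ by the fold rule in the 2 libraries of ATT-I-treated mice, in intervals of -0.83 to 0.48 and -0.45 to 0.27. The difference between these libraries was not tested.

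In anti-PD-1 the ratios were also read apart in cells with and without a UMI of the proliferation gene Mki67. Slc16a3 had a log2 ratio of Foxp3-gated to CD4 conventional-gated cells of 1.11 in Mki67-positive and 1.55 in Mki67-negative cells, Bnip3 1.28 and 1.55, and Ddit4 0.93 and 1.23. Ndrg1 was past the fold in Mki67-positive cells (1.25) and under it in Mki67-negative cells (0.50). Summed macrophage markers were 0.726 UMIs per 10000 in Foxp3-gated and 1.27 in CD4 conventional-gated cells of anti-PD-1, and their part in these ratios was not tested.

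In the combination the glycolytic median of Foxp3-gated to CD4 conventional-gated cells was 0.59, with 10 of 19 genes higher by the fold rule and 2 lower, where 19.9% of genes were higher and 23.7% lower. In vehicle it was 1.0, with 12 of 17 genes higher and 2 lower, where 23.1% were higher and 25.5% lower. In ATT-I it was 0.32, with an interval of the middle gene of -0.72 to 1.30, and 2 of 17 genes were higher and 1 lower, where 19.6% of genes were higher, so the count there was not above the background. In vehicle the 23 Foxp3-gated and 55 CD4 conventional-gated cells had medians of 17490 and 7673 UMIs, and 22 and 26 had an Mki67 UMI. In the combination the 29 and 39 cells had medians of 23291 and 12613 UMIs, and 18 and 18 had an Mki67 UMI. The part of depth and cycling in the glycolytic medians was not tested. The CD4 conventional-gated cells of vehicle had the lowest glycolytic sum of any lineage gate, 55.2 UMIs per 10000, against 62.4 in the combination, 71.7 in ATT-I and 86.2 in anti-PD-1.

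The next comparison asks how the genes vary among CD8-gated cells with Havcr2, the gene for the inhibitory receptor TIM-3 that marks chronically stimulated T cells. In anti-PD-1, 18 of 18 glycolytic genes had a level above that of Havcr2-negative cells relative to the median gene, by 0.10 to 0.71 with a median of 0.38, while the hypoxia median was 0.0039. Of these 18, Hk2 and Pfkfb3 had a UMI in under 10% of all CD8-gated cells of anti-PD-1. They entered through 1 side alone, so their place above 0 is not separate from the entry rule. With every gene of at least 20 UMIs entered in place of the 10% rule, these medians were 0.42 and 0.26. Past the fold were 2 of 18 glycolytic genes and 1 of 9 hypoxia genes, where 1.41% of 6953 genes were higher and 2.42% lower. The shift is shared by many steps and small at each.

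Gapdh stood at 27.2 UMIs per 10000 in Havcr2-positive and 19.9 in Havcr2-negative CD8-gated cells (log2 ratio 0.43), and Ldha at 8.80 and 6.34 (0.45). Pgk1, the first enzyme of the pathway to yield ATP, stood at 5.95 and 3.91 (0.59), just past the fold, and Tpi1 at 5.57 and 3.71 (0.57), just under it. Slc16a3 stood at 0.464 and 0.280 (0.71, 0.60 to 0.82), and Bnip3 at 0.345 and 0.209 (0.70, 0.58 to 0.83). Against these, Pdk1 was 0.183 and 0.227 (-0.33, -0.47 to -0.19) and Hif1a 1.26 and 1.41 (-0.18, -0.23 to -0.12), so the transcript of the oxygen-regulated factor did not move with the enzymes.

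Havcr2-positive cells were deeper (median 9707 against 6690 UMIs) and more of them had an Mki67 UMI (43.2% against 28.4%). With every cell reduced to 3000 UMIs and gated again, the glycolytic median was 0.23, and Pgk1 (0.33) and Tpi1 (0.25) lay under the fold. Among Mki67-positive cells alone the median was 0.30, with 18 of 18 genes above 0 and 0 past the fold, where 0.891% of genes were higher. Among Mki67-negative cells it was 0.43, with 17 of 17 above 0 and 3 past the fold, where 1.61% of genes were higher. The shift was present within both groups of cells. Havcr2-positive cells were also deeper in both, with medians of 13712 against 9511 UMIs in Mki67-positive and 8132 against 6077 in Mki67-negative cells. The part of depth within these groups was not tested.

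The same contrast in the smaller libraries gave a glycolytic median of 0.57 in ATT-I, with 9 of 19 genes past the fold where 20.7% of genes were higher, from 25 and 93 cells. In the combination it was 0.04, with 2 of 18 past the fold where 12.8% of genes were higher, from 58 and 62 cells. In ATT-I the median Havcr2-positive cell held 20584 UMIs against 7500 in Havcr2-negative cells, and 19 of 25 against 24 of 93 cells had an Mki67 UMI. In the combination these medians were 31597.5 and 25854 UMIs, and 54 of 58 and 54 of 62 cells had an Mki67 UMI. The part of depth and cycling in these ratios was not tested. Gapdh was 37.8 and 21.0 UMIs per 10000 in Havcr2-positive and Havcr2-negative cells of ATT-I, but 24.4 and 21.1 in the combination, and Ldha was 8.98 and 4.49 in ATT-I but 7.47 and 8.33 in the combination. Bnip3 was 0.283 and 0.0908 in the combination (1.57, 0.76 to 2.46). The difference between libraries was not tested, and vehicle held 17 Havcr2-positive CD8-gated cells, too few for this contrast.

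**Figure D3:**
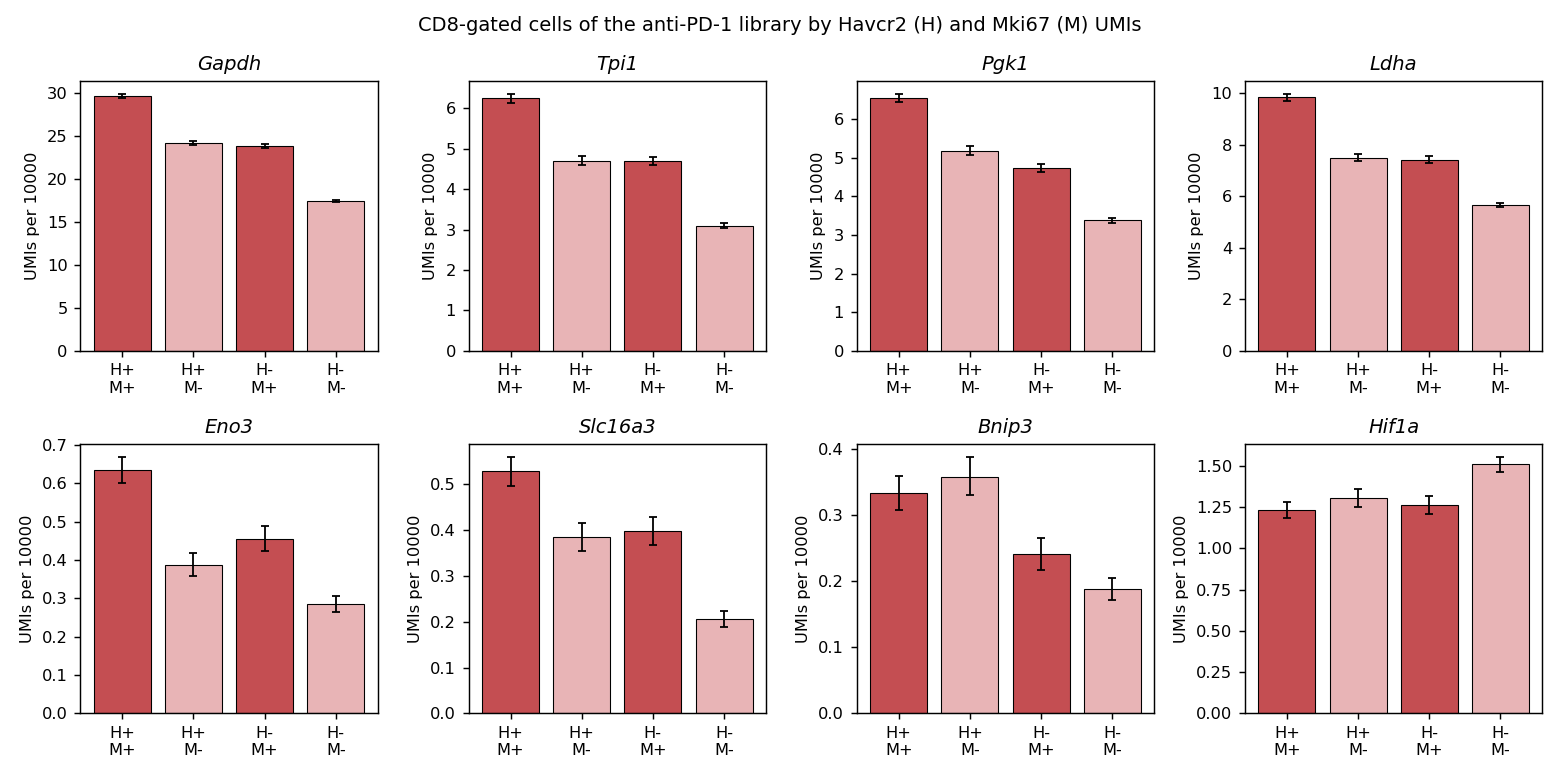
Levels of 8 genes in CD8-gated cells of anti-PD-1, split by UMIs of Havcr2 and Mki67, in UMIs per 10000 UMIs with exact 95% counting intervals; bars start at 0. Within both Mki67 groups, Gapdh, Tpi1, Pgk1, Ldha, Eno3, Slc16a3 and Bnip3 are higher in Havcr2-positive cells, and Hif1a is not.

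Tcf7, the gene for TCF-1, marks stem-like and memory T cells, and it gave the reverse picture. In anti-PD-1, 16 of 16 glycolytic genes that entered had a lower level in Tcf7-positive than in Tcf7-negative CD8-gated cells, by -0.79 to -0.12 with a median of -0.37. Past the fold were Slc16a3 and Eno3 among the glycolytic genes, and Bnip3 alone of 9 hypoxia genes, where 3.27% of 6667 genes were higher and 2.74% lower. The hypoxia median was -0.15. The median cell held 7689.5 UMIs in Tcf7-positive and 7641.5 in Tcf7-negative cells, and 30.3% and 34.5% of them had an Mki67 UMI.

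Slc16a3 stood at 0.224 UMIs per 10000 in Tcf7-positive and 0.392 in Tcf7-negative cells (-0.79, -0.96 to -0.61). Eno3 stood at 0.279 and 0.461 (-0.70), and Bnip3 at 0.153 and 0.295 (-0.92, -1.13 to -0.71). Gapdh stood at 18.2 and 24.3 (-0.39). Pdk1 again went the other way, with 0.253 and 0.197 (0.38, 0.21 to 0.56). In ATT-I the glycolytic median was -1.0, with 0 of 18 genes higher and 13 lower by the fold rule where 19.1% of genes were higher and 22.2% lower, and Pdk1 was 0.501 and 0.218 (1.34, 0.39 to 2.30), from 45 and 73 cells. The median cell there held 7066 UMIs in Tcf7-positive and 11962 in Tcf7-negative cells, and the part of depth in the ATT-I values was not tested. The combination and vehicle held 19 and 14 Tcf7-positive CD8-gated cells and were not compared.

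Taking both genes together, a split chosen after the data were seen, 2987 Havcr2-positive Tcf7-negative cells of anti-PD-1 were set against 1239 Tcf7-positive Havcr2-negative cells. The glycolytic median was 0.61 and the hypoxia median 0.13. By the fold rule, 10 of 18 glycolytic genes were higher, where 6.06% of 7015 genes were, led by Slc16a3 (1.45), Eno3 (1.21), Pgk1 (0.94) and Tpi1 (0.93). Of 9 hypoxia genes Bnip3 (1.48) and the collagen prolyl hydroxylase subunit P4ha1 (0.59) were higher and Pdk1 (-0.63) was lower, where 6.99% of genes were lower. Bnip3 and Slc16a3 were thus the members of each list with the highest ratio in this contrast.

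**Figure D4:**
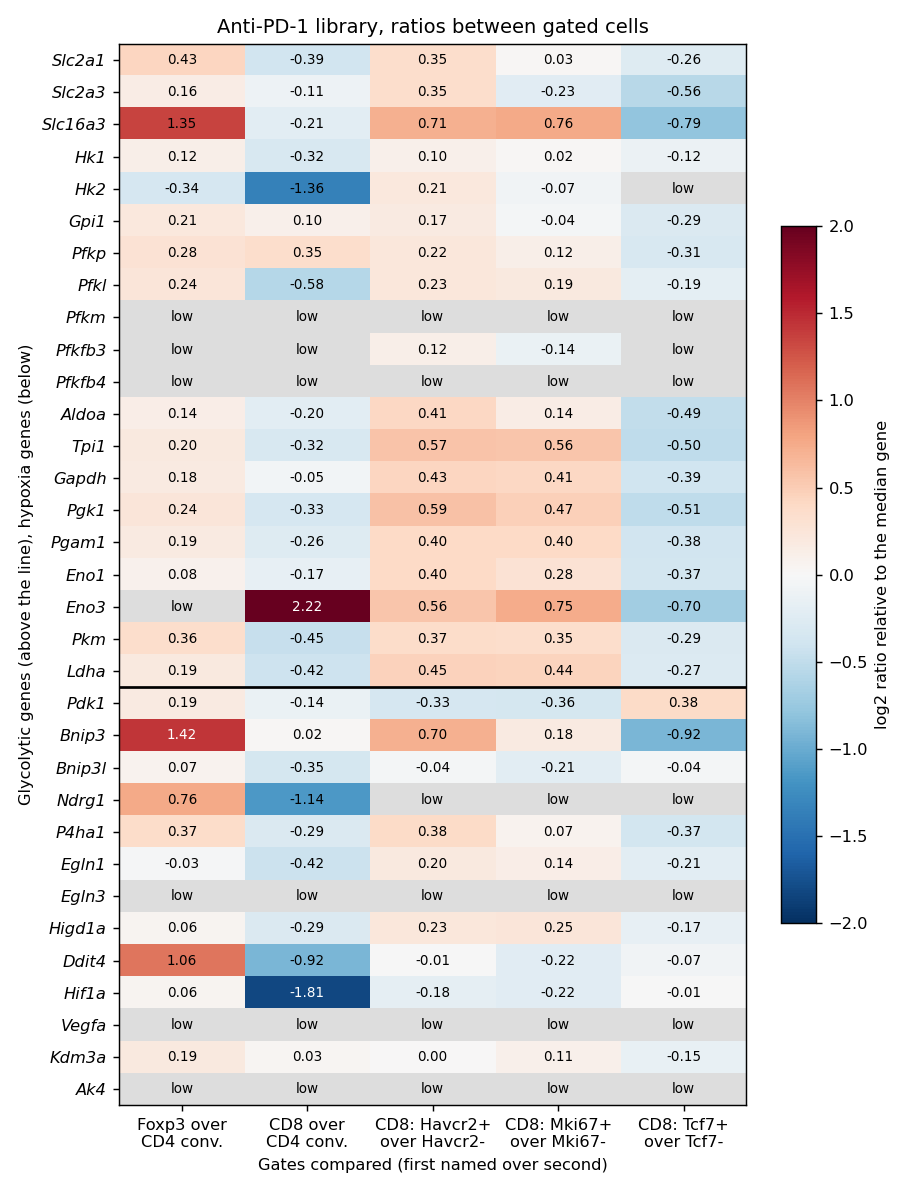
Log2 ratios of every measured gene in 5 comparisons between gated cells of the anti-PD-1 library, relative to the median gene; "low" marks a gene with a UMI in under 10% of cells on both sides. Every glycolytic gene with a value is above 0 for Havcr2 and below 0 for Tcf7, while the hypoxia genes have mixed signs.

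In Mki67-positive against Mki67-negative CD8-gated cells of anti-PD-1 the glycolytic median was 0.23, with 14 of 18 genes above 0, and the hypoxia median 0.07. The median cell held 11356 UMIs in Mki67-positive and 6704.5 in Mki67-negative cells, and with cells reduced to 3000 UMIs the hypoxia median was -0.15, over the 5 genes that then entered. Slc16a3 (0.468 and 0.273 UMIs per 10000, log2 ratio 0.76) and Eno3 (0.553 and 0.324, 0.75) were past the fold, where 8.93% of 7271 genes were higher and 1.91% lower, so this count is near the background. Of 9 hypoxia genes 0 were past it. In Foxp3-gated cells the only glycolytic gene past the fold was Pgk1 (9.19 and 6.07, 0.62), where 12.3% of genes were higher, and Bnip3 (0.742 and 0.780) and Slc16a3 (1.17 and 1.11) did not differ by the fold rule with Mki67. In CD4 conventional-gated cells Pgam1 (0.59) was the only glycolytic gene past the fold, where 9.72% of genes were higher. ATT-I gave a glycolytic median of 0.07 in CD8-gated cells, with 3 of 19 genes higher and 1 lower where 22.8% of genes were higher and 19.5% lower.

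How far single cells vary together was read in 8606 CD8-gated cells of anti-PD-1, each reduced to 3000 UMIs, for genes with a UMI in at least 10% of cells, and these correlations are a description of cells of 1 library that share its depth and free RNA. Gapdh followed the sum of the other glycolytic genes with Pearson's r = 0.63, Tpi1 with 0.57, Pgk1 and Aldoa with 0.56, Eno1 with 0.52, and Pkm and Ldha with 0.51. Pgam1 (0.40), Gpi1 (0.28), Pfkp (0.23) and Pfkl (0.17) followed it less, and Slc2a3 (0.054) and Hk1 (0.022) hardly. Slc2a3 and Hk1 had a UMI in only 10.1% and 12.5% of these cells, against 58.3% for Tpi1 and 98.2% for Gapdh. Scarce genes have less room to follow a sum, so place in the pathway cannot be read from these values. The hypoxia genes followed the sum of their own list with r between 0.077 and 0.15. The glycolytic sum had r = 0.35 with the hypoxia sum and 0.19 with the cycling markers.

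The comparisons between arms share libraries and are given side by side. Over all cells, anti-PD-1 against vehicle gave a glycolytic median of 0.42, with 5 of 18 genes higher by the fold rule and 0 lower, where 16.8% of 8475 genes were higher and 18.2% lower. These 5 were Slc2a1 (0.96, 0.62 to 1.32), Eno3 (0.88), Slc16a3 (0.82), Gpi1 (0.69) and Aldoa (0.65). Of them Eno3 was not past the fold within CD8-gated cells. CD8-gated cells made up 70.4% of anti-PD-1 and 32.9% of vehicle cells, and the part of this mix in the ratios over all cells was not tested. The hypoxia median was -0.02, but 0.43 as the mean of the 3 lineage gates, with Bnip3 higher (0.88, 0.53 to 1.26) and the histone demethylase Kdm3a lower (-0.63) among 10. The median of all genes lay at -0.24 before centring, and without centring the glycolytic median was 0.19. Single UMIs were lost from the deposited values in 37 anti-PD-1, 0 ATT-I, 37 combination and 21 vehicle cells, the deepest ones, and without these cells it was 0.83.

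ATT-I against vehicle gave a glycolytic median of 0.06, which ran from -0.16 without centring to 0.57 without the cells that had lost single UMIs, with 0 of 18 genes higher and 1 lower where 10.7% of 8484 genes were higher and 15.2% lower. The gene was Slc16a3 (-0.66, -1.19 to -0.14), whose ratio was 0.06 without the cells that had lost single UMIs. The hypoxia median was -0.13, but 0.12 with cells reduced to 3000 UMIs, and of 10 genes Kdm3a (-0.69) alone was lower. The combination against vehicle gave a glycolytic median of 0.14 and a hypoxia median of 0.10, which were 0.46 and 0.38 in cells with no Mki67 UMI. Hk2 (1.30, 0.91 to 1.70) and Slc2a1 (0.67) were higher of 18 glycolytic genes, and Pdk1 (-0.75, -1.15 to -0.35) was lower of 12 hypoxia genes, where 5.76% of 8853 genes were higher and 10.4% lower. In cells with no Mki67 UMI the Pdk1 ratio was 0.37.

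Against the single agents, the combination had a glycolytic median of -0.20 to anti-PD-1 (-0.45 without the cells that had lost single UMIs), with Hk2 higher (1.74, 1.55 to 1.93) and Eno3 (-1.36), Gpi1 (-0.77) and Aldoa (-0.69) lower of 18, where 17.0% of 8603 genes were higher and 15.8% lower. Of 12 hypoxia genes Vegfa (1.59) was higher and Bnip3l (-0.84) and Bnip3 (-0.73) were lower. To ATT-I the glycolytic median was -0.06, or 0.10 without centring, with Slc16a3 (0.97), Hk1 (0.81) and Hk2 (0.77) higher, where 14.2% of 8612 genes were higher and 14.7% lower. The hypoxia median was 0.31, but 0.0035 with cells reduced to 3000 UMIs, with Egln3 (0.90) and Bnip3 (0.64) higher and Pdk1 (-0.91) lower of 12. Egln3 and Bnip3 entered through the deeper cells of the combination alone, with a UMI in 11.1% and 19.1% of them against 2.69% and 7.07% in ATT-I.

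Within CD8-gated cells the combination against anti-PD-1 had a glycolytic median of -0.22, with Hk2 (1.71) higher and 4 of 18 genes lower, led by Eno3 (-1.24), where 18.4% of genes were higher and 17.2% lower. Of 11 hypoxia genes 4 were higher, led by Vegfa (1.78), Kdm3a (0.79) and Ddit4 (0.75), and Bnip3l (-0.85) and Bnip3 (-0.67) were lower. Hk2 and Vegfa again entered through the combination alone. Against ATT-I the CD8-gated median was -0.24, with 2 higher and 2 lower of 18, where 16.2% of genes were higher and 17.0% lower. In CD4 conventional-gated cells the median was -0.45 to anti-PD-1, with 3 of 18 genes higher and 8 lower, led by Aldoa (-1.07) and Pkm (-0.95), the enzyme that makes pyruvate, where 20.3% of genes were higher and 18.8% lower. Against ATT-I it was -0.17 there, with 4 higher and 5 lower, where 20.5% were higher and 19.3% lower.

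Hk2 had the same highest library within the gates. In CD8-gated cells it stood at 0.109 UMIs per 10000 in anti-PD-1, 0.213 in ATT-I, 0.389 in the combination (0.328 to 0.458) and 0.181 in vehicle. In CD4 conventional-gated cells it stood at 0.291, 0.519, 0.939 (0.713 to 1.21) and 0.117, and in Foxp3-gated cells at 0.236, 0.181, 0.728 (0.547 to 0.949) and 0.333. The interval of the combination lay above the other 3 in each gate, narrowly so over ATT-I in CD4 conventional-gated cells (0.367 to 0.712) and over vehicle in Foxp3-gated cells (0.197 to 0.526). Over the alternatives of processing in all cells the log2 ratio of Hk2 in the combination to vehicle ran from 1.22 to 2.01. Summed cycling markers, at 8.81 UMIs per 10000 in anti-PD-1, 9.44 in ATT-I, 28.0 in the combination and 25.3 in vehicle, also differed between these libraries, and their part in the Hk2 levels was not tested.

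Within CD8-gated cells, anti-PD-1 against vehicle gave a glycolytic median of 0.48, with 8 of 18 genes higher where 21.8% of 8780 genes were higher and 21.0% lower. Slc16a3 was 0.364 UMIs per 10000 in anti-PD-1, 0.140 in ATT-I, 0.264 in the combination and 0.118 in vehicle, and its log2 ratio to vehicle was 1.91 (1.19 to 2.75) for anti-PD-1 and 1.27 (0.48 to 2.16) for the combination. The other 7 were Pfkl, Slc2a1, Pgam1, Gpi1, Aldoa, Ldha and Pkm, at 0.60 to 1.17. The hypoxia median was 0.03, but 0.43 with cells reduced to 3000 UMIs, and of 10 genes Bnip3 (0.87) and the mitophagy receptor Bnip3l (0.60) were higher. ATT-I against vehicle gave a glycolytic median of 0.40 with 1 of 18 genes higher, where 16.5% were higher and 19.7% lower, and the combination 0.16 with 4 higher and Eno3 (-1.17) lower, where 9.26% were higher and 15.6% lower.

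In CD4 conventional-gated cells, of which vehicle held 55, the glycolytic sum was highest in anti-PD-1, although Hk2 was highest in the combination. Anti-PD-1 against vehicle gave a glycolytic median of 1.10, with 12 of 16 genes higher where 22.0% of 7575 genes were higher and 22.6% lower. Ldha stood at 10.4 UMIs per 10000 in anti-PD-1, 6.48 in ATT-I, 6.39 in the combination and 4.95 in vehicle, and Aldoa, which cleaves fructose bisphosphate, at 10.3, 7.36, 5.62 and 5.67. Anti-PD-1 was above the other 3 for both, and for Aldoa the combination and vehicle overlapped. Slc2a1 (1.88), Hk2 (1.62), Ldha (1.37) and Pgam1 (1.35) led the list. The hypoxia median was 0.67, with 5 of 10 genes higher, among them Bnip3 (3.35, 1.48 to 6.41, from 2 UMIs in vehicle), Ndrg1 (1.63) and Ddit4 (0.95). Bnip3 entered this comparison through anti-PD-1 alone.

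ATT-I against vehicle in CD4 conventional-gated cells gave a glycolytic median of 0.60, with 9 of 16 genes higher and 2 lower where 18.5% of genes were higher and 22.7% lower, led by Hk2 (2.44, 1.26 to 3.85) and Slc2a1 (1.69). The combination against vehicle gave 0.26, with 5 of 18 higher where 16.8% were higher and 18.4% lower, led by Hk2 (3.05, 1.92 to 4.43). Its hypoxia median of 0.60 became -1.0 when cells were reduced to 3000 UMIs, which left 26 and 39 cells. In this gate summed macrophage markers were 1.27 UMIs per 10000 in anti-PD-1, 0.150 in ATT-I, 0.227 in the combination and 0.167 in vehicle. Epithelial markers were 0.0979, 5.37, 0 and 0.183. Without cells holding 5 or more UMIs of epithelial, macrophage or fibroblast markers, which left 926 of 947 anti-PD-1, 89 of 90 ATT-I, 37 of 39 combination and 55 of 55 vehicle cells, the glycolytic medians were 1.10 for anti-PD-1, 0.74 for ATT-I and 0.29 for the combination. Cycling markers in this gate were 6.73, 7.65, 14.9 and 15.5, and their part was not tested.

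Other genes of these pathways came from wider lists of 34 glycolysis and 30 hypoxia genes, of which 31 and 30 are in the table. For Havcr2 in anti-PD-1 the medians of these wider lists were 0.0030 for glycolysis and 0.0075 for hypoxia, and for Tcf7 they were -0.063 and -0.14. For Havcr2, 1 of 18 wider glycolysis genes was higher and 1 lower, where 1.41% of all genes were higher and 2.42% lower, namely Gpd2 (0.71), a mitochondrial glycerol-3-phosphate dehydrogenase, and Txnip (-0.62), an inhibitor of glucose uptake. Of 20 wider hypoxia genes Plod2 (0.69) was higher and Rora (-0.59) lower. For Tcf7, Gpd2 (-1.24) was lower of 17 and 5 of 18 hypoxia genes were lower, where 2.74% of all genes were, among them Plod2 (-1.15), a collagen lysyl hydroxylase, and Mxi1 (-0.92), an antagonist of Myc. Between CD8-gated and CD4 conventional-gated cells, Gpd2 (1.81) and Myc (1.13) were higher and Ldhb (-2.31), the lactate dehydrogenase subunit of oxidative tissues, was lower of 19, where 5.52% of all genes were higher and 7.84% lower. Of 19 hypoxia genes Plod2 (0.96) was higher and 5 were lower, led by Sdc4 (-3.61), Rora (-2.45) and Bhlhe40 (-1.25).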

How the data were processed

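Single cells of 4 arms were profiled by the 10x Genomics method, 1 library an arm. Tools and build named in the submitters' processing notes are Cell Ranger, Seurat and mm10, and settings are not given in the sources used here. The authors deposited 1 table of natural log values. Read back, each value is ln(1 + x), where x is a gene's UMIs scaled to 10000 per cell, minus a constant per library (0.249 in anti-PD-1, 0.153 in ATT-I, 0.225 in the combination, 0.247 in vehicle), and values below 0 were set to 0. With it 100% of the deposited values gave a whole UMI count within 0.02. In the deepest cells this step turned single UMIs into 0, and no source gives its reason. There were 0 columns left unused.

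The computation used Python 3.11.15, numpy 2.4.6 and scipy 1.17.1, with figures from matplotlib 3.10.9. UMIs were summed over the cells of a gate and divided by the gate's total. Ratios are relative to the median gene, without a pseudocount, and their intervals are exact binomial intervals conditional on the sum of both counts, checked on simulated counts. A side with 0 UMIs takes a floor of 3 UMIs. Comparisons between arms needed 30 cells in each library and comparisons between gates 20 cells a side. No filter on cells was applied and no doublets were called. Reducing cells to 3000 UMIs left out 484 anti-PD-1, 20 ATT-I, 5 combination and 2 vehicle cells. Alternatives changed the weighting, depth, centring, filter on low genes, gates and cells included. All listed genes could be named, and genes of the wider lists where they passed the fold. The genes and lists were chosen with earlier results of these data known. With 1 library an arm, no test across samples was possible.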

Additional observations from a re-analysis of the deposited data

Results flagged for a closer look

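Ndrg1 in the combination against ATT-I went opposite ways in the lineage gates. Its log2 ratio was -0.91 in CD8-gated cells, with a counting interval of -1.74 to -0.05, and 1.38 in CD4 conventional-gated cells, with an interval of -0.20 to 3.22. The gene had 34 UMIs in the combination and 21 in ATT-I among CD8-gated cells, and 13 and 5 among CD4 conventional-gated cells. The difference between the gates was not tested.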

How the results depend on the processing

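No paired analysis was possible because each arm has 1 library. Of 186 recomputed list medians 139 stayed within the counting interval of the middle gene or genes, 46 moved outside it and 1 reversed. Of 2304 recomputed gene ratios 1687 stayed within their own interval, 614 moved outside it and 3 reversed. Reversed here means a change of sign in a value of at least 1.5-fold in the main setting. Smaller values that changed sign are counted by the interval alone. The cause of each move was not tested. For anti-PD-1 against vehicle over all cells the glycolytic median of 0.42 was 0.61 with each cell weighted equally, 0.54 with cells reduced to 3000 UMIs, 0.19 without centring, 0.60 in cells with no Mki67 UMI, 0.63 as the mean of the 3 lineage gates, 0.47 in cells with a Cd3 UMI and no markers of other cell types, and 0.83 without the cells that had lost single UMIs. For ATT-I against vehicle the 0.06 was 0.22, 0.31, -0.16, 0.24, 0.29, 0.22 and 0.57 under these settings in turn. For the combination against vehicle the 0.14 was 0.33 with equal weights, 0.067 without centring, 0.46 with no Mki67 UMI, 0.22 as the mean of gates and 0.27 without cells that had lost UMIs. For the combination against anti-PD-1 the -0.20 was -0.069 without centring, -0.27 as the mean of gates and -0.45 without cells that had lost UMIs, and against ATT-I the -0.06 was 0.097 without centring, 0.25 with no Mki67 UMI and -0.17 without cells that had lost UMIs. The hypoxia medians moved for anti-PD-1 against vehicle (0.43 as the mean of gates, 0.35 in cells with a Cd3 UMI and no other markers), for ATT-I against vehicle (0.12 at 3000 UMIs, -0.35 without centring, 0.17 with no Mki67 UMI, 0.13 as the mean of gates, 0.098 without cells that had lost UMIs), for the combination against vehicle (0.38 with no Mki67 UMI, 0.37 as the mean of gates) and for the combination against ATT-I (0.0035 at 3000 UMIs). Within gates, reduction to 3000 UMIs gave a hypoxia median of 0.43 for anti-PD-1 against vehicle in CD8-gated cells and -1.0 for the combination against vehicle in CD4 conventional-gated cells, where Egln1 was the middle gene at -1.0, and a glycolytic median of 0.83 for ATT-I against vehicle in CD4 conventional-gated cells, which was 0.98 without cells that had lost UMIs. In anti-PD-1, reduction to 3000 UMIs gave a hypoxia median of -0.15 for Mki67, a glycolytic median of 0.23 for Havcr2 and a hypoxia median of -0.44 for CD8-gated against CD4 conventional-gated cells. With genes entering at 20 UMIs the Havcr2 medians were 0.42 and 0.26 for glycolytic and hypoxia genes, and with no Mki67 UMI the first was 0.43. A Foxp3 gate at 2 UMIs gave a glycolytic median of 0.28, and CD8 and CD4 gates with no UMI of the other coreceptor gave -0.15. The reversed gene ratios were Slc16a3 in ATT-I against vehicle (0.059 without the cells that had lost UMIs), Pdk1 in the combination against vehicle (0.37 with no Mki67 UMI) and Egln1 as above. The alternatives on gates within arms, on cells that had lost UMIs and on markers of other cell types were chosen after the data were seen. The number of cells, and so the total UMIs of a gate, limits the vehicle, combination and ATT-I libraries most, and ratios from under 10 UMIs on one side there have wide counting intervals.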
